A study of Mus musculus with 6 samples.

Results

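A group of 6 transcription factor genes was read in the response of a mouse macrophage cell line to bacterial endotoxin: Spi1, which encodes PU.1, Ets2, the CCAAT/enhancer binding protein (C/EBP) genes Cebpa, Cebpb and Cebpd, and Nfil3. They were taken as every array probe whose only gene symbol in the platform annotation was one of these names. This gave 6 genes of 10698 with such a probe, and 7 probes of 16281. Cebpb had 2 probes and the other genes 1 each, and all 7 probes were measured on all 6 arrays.

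RAW 264.7 cells, an established mouse macrophage line, were cultured for 2 h either untreated or with both lipopolysaccharide (LPS) at 100 ng/ml and its serum carrier, LPS-binding protein (LBP), at 100 pM. Each of 6 two-colour arrays carried 1 RNA of each kind, and the arrays are named here by the dye of the treated RNA: 3 Cy5 arrays (red) and 3 Cy3 arrays (green). The arrays of each kind were numbered as sets 1 to 3, and nothing in the labels says that the sets were separate cultures. The p-values therefore measure only the spread between sets, which may be technical, moderated by limma with that of all features. Differences between the 2 arrays of a set are averaged out before the test and do not enter them. No sample with LPS alone or LBP alone was analysed here. A value is the log2 ratio of treated over untreated RNA on an array. It is a ratio of whole-culture RNA, in which more transcript per cell and more cells with the transcript cannot be told apart. It gives no transcript level, so neither the levels of the 6 genes nor the macrophage identity of the cells could be read from it. Signs of the Cy3 arrays were turned, and the 2 arrays of a set were averaged, giving n = 3 sets. The direction of the deposited ratios is not stated and was taken as Cy5 over Cy3; with it, all 8 genes listed as a check of LPS induction, among them Acod1 and Il1b, were positive on 6 of 6 arrays.

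PU.1 is an ETS-domain protein that sets up the enhancers of myeloid cells and is required for macrophages to form, and C/EBPα acts beside it in the granulocyte and monocyte lineage. C/EBPβ and C/EBPδ are bZIP proteins known for their part in inflammatory and acute phase gene expression. ETS2 is an ETS factor activated by phosphorylation downstream of the MAP kinase ERK. NFIL3, also called E4BP4, is a bZIP repressor that binds the same sites as the clock output activators DBP, TEF and HLF, and in macrophages it is known to restrain Il12b.

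The RefSeq promoter table held 4 of the genes, Cebpb, Ets2, Nfil3 and Cebpa. Their 250 bases before the annotated start (build GRCm38.p6) are shown because these genes were higher together, so that motifs of signal-driven factors near their starts can be compared. Capitals mark matches, on either strand, to the motifs searched.
Cebpb, chr2:167688665-167688914, + strand: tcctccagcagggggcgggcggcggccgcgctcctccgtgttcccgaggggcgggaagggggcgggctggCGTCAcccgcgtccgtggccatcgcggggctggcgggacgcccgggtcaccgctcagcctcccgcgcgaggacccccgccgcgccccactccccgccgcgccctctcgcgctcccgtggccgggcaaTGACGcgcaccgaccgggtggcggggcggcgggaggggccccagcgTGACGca
Ets2, chr16:95702157-95702406, + strand: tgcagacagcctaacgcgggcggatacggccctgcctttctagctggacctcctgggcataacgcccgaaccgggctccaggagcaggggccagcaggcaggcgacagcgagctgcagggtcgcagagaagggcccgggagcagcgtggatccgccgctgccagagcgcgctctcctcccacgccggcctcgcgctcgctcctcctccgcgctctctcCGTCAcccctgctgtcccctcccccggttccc
Nfil3, chr13:52981040-52981289, - strand: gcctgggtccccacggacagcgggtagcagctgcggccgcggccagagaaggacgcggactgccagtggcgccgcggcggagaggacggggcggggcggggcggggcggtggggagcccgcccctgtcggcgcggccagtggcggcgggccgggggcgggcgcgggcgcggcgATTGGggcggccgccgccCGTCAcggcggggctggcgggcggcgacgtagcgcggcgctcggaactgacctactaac
Cebpa, chr7:35119043-35119292, + strand: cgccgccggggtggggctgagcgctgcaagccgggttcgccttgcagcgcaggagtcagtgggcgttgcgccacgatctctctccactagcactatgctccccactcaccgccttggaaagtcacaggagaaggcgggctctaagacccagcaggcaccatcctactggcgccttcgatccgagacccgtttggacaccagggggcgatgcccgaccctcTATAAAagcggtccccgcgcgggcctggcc
The letters searched were TGACG, the core of the cAMP response element; CCGGAA, an ETS site; GAGGAA, a PU.1 site; TTNNGNAA, a C/EBP site; GGANTTNCC, an NF-κB site; TGANTCA, an AP-1 site; TATAAA; and CCAAT. None of these matches overlapped another. TGACG stood 3 times in the Cebpb window, at 180, 53 and 7 bases before the start, once in that of Ets2 (32 bases before) and once in that of Nfil3 (59 bases before). It was present in 17.8% of all 32851 promoter windows of this length. These windows are rich in G and C, at 81.6% in Cebpb and Nfil3, 71.6% in Ets2 and 66.4% in Cebpa, against a median of 52.4% over all windows. Cebpa held TATAAA, 30 bases before the start, as do 12.4% of windows, and Nfil3 held CCAAT, as do 33.8%. The letters chosen for NF-κB (in 3.15% of windows), AP-1 (6.75%), ETS (12.0%), PU.1 (23.3%) and C/EBP (36.8%) sites were not found in these 4 windows.

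All 6 genes were higher after 2 h with LPS and LBP, each on 6 of 6 arrays, by limma with Benjamini-Hochberg adjusted p under 0.05 over 11231 features. Over all features 7.35% were called higher by the same rule and 7.45% lower, and 8.93% were positive on 6 of 6 arrays. Of single probes 7.50% were called higher, and all 7 probes of these genes were. The rises differed in size. Cebpd and Ets2 rose over 2-fold, and 1.10% of all features were called higher with a rise of that size. Cebpb, Spi1 and Cebpa rose by between 1.36-fold and 1.50-fold, and Nfil3 rose 1.13-fold. The median fold of all features called higher was 1.30.

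**Figure D1:**
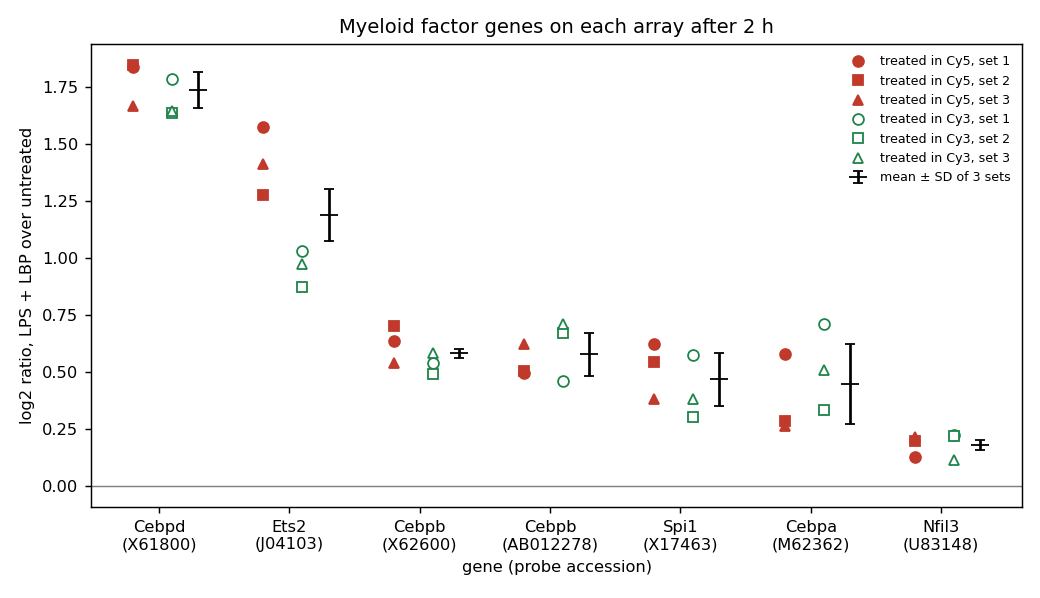
Log2 ratio of LPS and LBP over untreated (vertical axis) for the 7 probes of the 6 genes, by array: red filled points are Cy5 arrays, green open points Cy3 arrays with the sign turned, and the shape gives the set. Black marks show the mean ± SD of 3 sets; every point lies above 0, and the Ets2 points of the 2 dye orientations are apart.

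Of the C/EBP genes, Cebpd, which encodes the inflammation-induced C/EBPδ, had the largest rise. Its log2 ratios were 1.84, 1.85 and 1.67 in sets 1 to 3 on the Cy5 arrays, and 1.79, 1.64 and 1.64 on the Cy3 arrays. The 6 arrays lay close together, and both dyes gave nearly the same value. The mean was 1.74 ± 0.08 (SD, n = 3 sets), or 3.33-fold (limma adjusted p = 1.62e-05), which placed Cebpd 59th of 11231 features from the highest.

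Cebpb, which encodes C/EBPβ, the factor of Il6 and acute phase genes, rose less and very evenly. Its first probe, made from entry X62600, read 0.63, 0.70 and 0.54 on the Cy5 arrays and 0.54, 0.49 and 0.59 on the Cy3 arrays. The second, from AB012278, read 0.50, 0.51 and 0.62, and 0.46, 0.67 and 0.71. The probes had means of 0.58 and 0.58, closer than the spread between sets. Averaged over both, the rise was 0.58 ± 0.04 (1.50-fold, limma adjusted p = 0.000588).

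Cebpa, the lineage factor of the family, rose by a similar amount with more spread. It stood at 0.58, 0.28 and 0.26 on the Cy5 arrays and at 0.71, 0.33 and 0.51 on the Cy3 arrays. Set 1 was the highest in both orientations. The mean was 0.45 ± 0.18 (1.36-fold, limma adjusted p = 0.0101). The adjusted p was 0.0828 without set 3 and 0.0580 without the Cy5 array of set 2, with means of 0.48 and 0.45; in the orientations taken alone it was 0.0887 for Cy5 and 0.0569 for Cy3. It was 0.104 when exact zeros, treated as missing here, were kept as values over all probes.

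Among the ETS genes, Ets2, the ERK-activated factor, rose 2.28-fold, at 1.19 ± 0.11 (limma adjusted p = 7.92e-05). The single arrays gave 1.57, 1.28 and 1.41 on the Cy5 arrays and 1.03, 0.87 and 0.98 on the Cy3 arrays. The orientations did not overlap, and in both of them set 1 was the highest and set 2 the lowest. The Cy5 arrays averaged 1.42 and the swapped arrays 0.96, a 0.23 ± 0.04 departure of each from the mean, which cancels in the set means. As a dye effect this had limma adjusted p = 0.174. That is the smallest adjusted p that any feature reached, but Ets2 shares it with other features, among them Elf1, Cebpg and Il1b. Of 11231 features 0 passed the threshold, 2477 had an unadjusted p under 0.05, and 8.82% had a larger departure than Ets2.

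Spi1, the gene of PU.1, rose 1.38-fold. Its arrays gave 0.62, 0.55 and 0.38 on the Cy5 arrays, and 0.58, 0.30 and 0.38 on the Cy3 arrays. As for Cebpa, set 1 was the highest in both orientations, and all 6 values were above 0.30. The mean was 0.47 ± 0.12 (limma adjusted p = 0.00349). Without the Cy5 array of set 2 the mean was 0.43 and the adjusted p 0.0622, and it was 0.0597 in the swapped arrays alone and 0.0565 with exact zeros kept as values.

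Nfil3, the bZIP repressor, had the smallest rise, 1.13-fold. It read 0.13, 0.20 and 0.22 on the Cy5 arrays and 0.23, 0.22 and 0.11 on the Cy3 arrays, positive on 6 of 6 arrays. The mean was 0.18 ± 0.02 (limma adjusted p = 0.0418). This call lies just inside the threshold and was lost in each of the 9 fits that left out 1 set or 1 array, with means between 0.17 and 0.20 and adjusted p between 0.0744 and 0.247.

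The sizes formed an order from Cebpd over Ets2, then Cebpb, Spi1 and Cebpa, to Nfil3. Cebpd exceeded Ets2 by 0.51, 0.67 and 0.46 in sets 1 to 3, and every array of Cebpd lay above every array of Ets2. Ets2 in turn exceeded Cebpb by 0.77, 0.48 and 0.58, again with no overlap of arrays. Cebpb, Spi1 and Cebpa overlapped: Cebpb was the highest of these in sets 2 and 3 and the lowest in set 1, and the Spi1 and Cebpa means differed by 0.02 ± 0.08. Their order is therefore within the spread between sets. Nfil3 lay below each of them on 6 of 6 arrays. The differences between genes are given as descriptions and were not tested; they are unequal changes of ratios, not differences in transcript level.

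**Figure D2:**
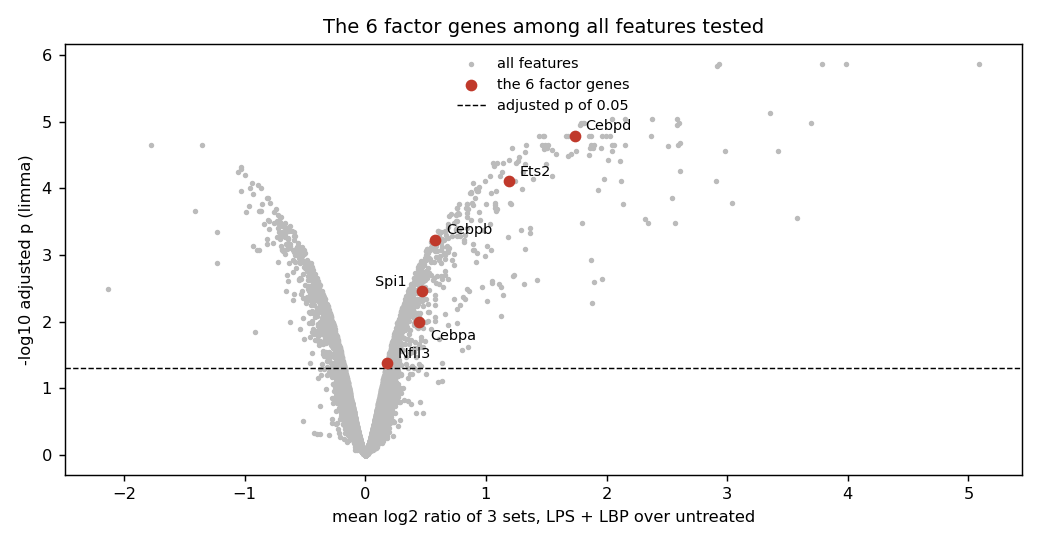
Mean log2 ratio of 3 sets (horizontal axis) against −log10 of the limma adjusted p (vertical axis) for all 11231 features in grey, with the 6 genes in red and the threshold of 0.05 as a dashed line. Cebpd at 1.74 and Ets2 at 1.19 lie in the sparse right arm, and Nfil3 at 0.18 lies just above the line.

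For each gene, the named genes with the nearest values over the 6 arrays were picked by the smallest root mean square difference of log2 ratios, as a description. Nearest to Cebpd were the endocytic recycling gene Ehd1 (0.09), the actin-binding protein gene Marcksl1 (0.11) and the NF-κB subunit gene Relb (0.12), with means of 1.82, 1.78 and 1.79. Nearest to Ets2 were the osteoclast fusion gene Ocstamp (0.17), the NF-κB subunit gene Nfkb2 (0.18) and the myosin-binding protein gene Mybpc3 (0.19). Cebpb was nearest to the antiproliferative gene Btg3, the p53 ubiquitin ligase gene Mdm2 and the lectin gene Clec4d (0.06 to 0.07), with means of 0.55, 0.60 and 0.58. Spi1 was nearest to the membrane protein gene Tmem98, the receptor tyrosine kinase gene Epha2 and 5430427O19Rik (0.05 to 0.08). Cebpa was nearest to the survival gene Bcl2l1 (0.08), the mitochondrial superoxide dismutase gene Sod2 (0.09) and the bZIP factor gene Batf (0.10). The 4 Bcl2l1 probes had means from -0.10 to 1.52, so its value depends on how they are combined. Nfil3 was nearest to the mitochondrial ubiquitin ligase gene Marchf5, the kinase gene Riok1 and the anthrax toxin receptor gene Antxr2 (0.04 to 0.05), and a difference that small separates little among the many features near 0.

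The relatives of these genes did not all move with them. Of the ETS family, 22 of 26 listed genes had a probe and 19 were tested. In this family 4 were higher, 5 lower and 10 without a limma call, with a median log2 ratio of 0.02. Over all features 7.35% were called higher and 7.45% lower, with a median of -0.00. Besides Ets2 and Spi1, the higher genes were Gabpa, which encodes the DNA-binding subunit of GA-binding protein (0.23 ± 0.11, adjusted p = 0.0451), and the serum response cofactor gene Elk4 (0.23 ± 0.09, adjusted p = 0.0369), each on 5 of 6 arrays. Both were lost without set 1 (adjusted p 0.150 and 0.121) and without set 3 (0.302 and 0.239), and without any 1 of the 6 arrays, with adjusted p of 0.0535 at the least.

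The lower ETS genes changed by more than Gabpa and Elk4, and all 5 were negative on 6 of 6 arrays. Etv1, a PEA3-group factor gene, fell 1.62-fold (-0.70 ± 0.06, limma adjusted p = 0.000341), at -0.75, -0.63 and -0.72 in sets 1 to 3. Elf1, a factor gene of lymphoid and myeloid cells, fell 1.59-fold (-0.67 ± 0.12), Fli1, a factor gene of blood and endothelial cells, 1.56-fold (-0.64 ± 0.18) and Elk3, whose protein is a ternary complex factor, 1.50-fold (-0.59 ± 0.01), with adjusted p of at most 0.00243. The 3 sets of Elk3 were nearly equal, at -0.58, -0.60 and -0.59, whereas those of Fli1 ran from -0.83 to -0.49. Elf1 averaged -0.90 on the Cy5 arrays and -0.43 on the Cy3 arrays, where alone it missed the threshold (adjusted p = 0.0850). Etv5, of the same group as Etv1 and named after its value was seen, fell 1.30-fold (-0.38 ± 0.04, adjusted p = 0.00302), but missed the threshold in the Cy5 (0.0667) and the Cy3 arrays (0.0789) taken alone and against a 1.2-fold change (0.373). Without the Cy5 array of set 2, the adjusted p of Elf1 was 0.0893 at a mean of -0.56 and that of Etv5 0.0867 at -0.33, and that of Fli1 was 0.0637 with exact zeros kept as values. Spib, the closest relative of Spi1, stood at 0.22 ± 0.12 (adjusted p = 0.0559), and Ets1, the closest relative of Ets2, at 0.04 ± 0.18 (adjusted p = 0.763). Spib passed without the Cy3 array of set 3 (0.26, adjusted p = 0.0448) and in a fit of 6 arrays with the set as a random replicate block (adjusted p = 0.0303). It did not pass in the other alternatives, among them that block with a dye term. Leaving out 1 set or array put the number of higher ETS genes between 1 and 5 and of lower ones between 3 and 5.

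Of 7 listed C/EBP genes, 5 were tested, and 4 of these were higher, 0 lower and 1 without a limma call, with a median of 0.48. At an unadjusted p under 0.05, 0 were lower. Over all features 7.35% were called higher and 7.45% lower, with a median of -0.00. Cebpa, Cebpb and Cebpd are 3 of the 4 higher genes. Of the 2 other genes tested 1 was higher, with a median of 0.25. Besides the 3 genes above, the higher one was Ddit3, which encodes the stress-induced C/EBP partner CHOP (0.48 ± 0.09, 1.40-fold, adjusted p = 0.00216), at 0.40, 0.47 and 0.58 in sets 1 to 3. Ddit3 missed the threshold on the Cy3 arrays alone (0.46, adjusted p = 0.0686) and against a 1.2-fold change (0.0725). The number of higher C/EBP genes was 3 or 4 when 1 set or array was left out, and 2 on the Cy3 arrays alone. Cebpg, which encodes the short family member C/EBPγ that lacks an activation domain, stood at 0.01 ± 0.02 (adjusted p = 0.925). Its arrays read -0.14, -0.16 and -0.09 on the Cy5 arrays and 0.12, 0.17 and 0.15 on the Cy3 arrays. The orientations thus had opposite signs that cancel in the set means, and the small SD does not show this (adjusted p = 0.174 as a dye effect).

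Of 13 listed PAR bZIP and clock genes, the group whose sites NFIL3 shares, 10 were tested: 1 (Nfil3) was higher, 3 lower and 6 without a limma call, with a median of 0.03. The shares over all features were 7.35% higher and 7.45% lower. The lower genes were Tef, the PAR bZIP activator gene (-0.24 ± 0.02, adjusted p = 0.0163), the nuclear receptor gene Nr1d2 (-0.24 ± 0.13, adjusted p = 0.0482) and the period gene Per2 (-0.20 ± 0.08, adjusted p = 0.0459). All 3 were 1.18-fold or less, and the count of lower genes was between 0 and 2 in the fits that left out 1 set or array. The orientations gave Tef -0.03 in Cy5 and -0.45 in Cy3, and Per2 -0.01 and -0.40, and with no replicate block their adjusted p was 0.234 and 0.213. The 2 Nr1d2 probes had means of -0.45 and -0.04. Dbp had a value on 4 arrays, between -0.08 and 0.06.

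**Figure D3:**
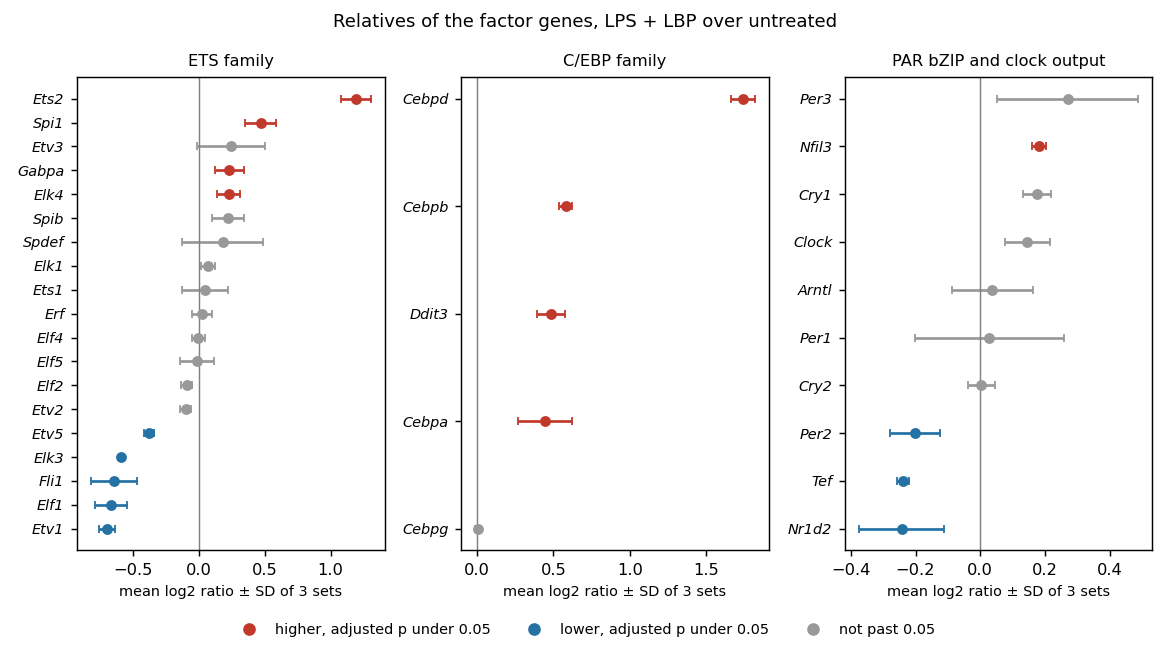
Mean log2 ratio ± SD of 3 sets (horizontal axes, which differ in range) of the tested genes of the ETS family, the C/EBP family and the PAR bZIP and clock group. Red marks genes higher and blue genes lower at adjusted p under 0.05. Ets2 and Spi1 lead an ETS family in which 5 genes fell. Of 5 C/EBP genes 4 were higher, Cebpa, Cebpb and Cebpd among them.

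Partners and regulators of PU.1 and C/EBP were listed next. Of 18 genes 12 were tested, with 2 higher, 2 lower and 8 without a limma call, and a median of -0.11. Among all features 7.35% were called higher and 7.45% lower. Irf8 and Irf4, the interferon regulatory factors that bind DNA together with PU.1, were the higher genes: Irf8 at 0.61 ± 0.11 (1.53-fold, adjusted p = 0.00118) and Irf4 at 0.29 ± 0.05 (1.22-fold, adjusted p = 0.00963), each on 6 of 6 arrays. Irf4 had adjusted p of 0.119 without set 3, and 0.0827 and 0.0683 without the Cy5 or the Cy3 array of set 2. Taken alone, the Cy5 arrays gave it 0.125 and the Cy3 arrays 0.0715, and it did not pass against a 1.2-fold change. Id2, which encodes an inhibitor of helix-loop-helix factors, fell 3.42-fold, at -1.84, -1.85 and -1.62 in sets 1 to 3 (-1.77 ± 0.13, adjusted p = 2.23e-05). Jun, the AP-1 subunit gene and PU.1 coactivator, was lower (-0.35 ± 0.19, adjusted p = 0.0302), on 5 of 6 arrays. It had adjusted p = 0.31 in a fit of 6 arrays with no replicate block, and it missed the threshold in 5 of the 9 fits that left out 1 set or array, with adjusted p of 0.114 without set 1 and of 0.778, at -0.10, without the Cy5 array of set 2. Runx1, a partner of both factor families, stood at -0.16 ± 0.08 (adjusted p = 0.0965).

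Known target genes of PU.1 were split. Of 24 listed, 22 were tested, with 5 higher, 5 lower and 12 without a limma call, and a median of 0.02. For all features 7.35% were called higher and 7.45% lower, with a median of -0.00. The list was chosen with earlier results of these data known, so its counts are a description. The higher genes were Egr2, the zinc finger factor (1.42 ± 0.47, 2.68-fold, adjusted p = 0.0024), Tlr2, the lipoprotein receptor (1.33 ± 0.03, 2.51-fold, adjusted p = 2.23e-05), Adgre1, the F4/80 antigen (0.83 ± 0.07), Cybb, the catalytic subunit of the phagocyte oxidase (0.69 ± 0.06, 1.61-fold, adjusted p = 0.00034), and Irf8. The lower ones were Tlr4, the LPS receptor (-0.89 ± 0.02), the antibody receptor genes Fcgr1 (-0.47 ± 0.09) and Fcgr3 (-0.28 ± 0.16), the G-CSF receptor gene Csf3r (-0.41 ± 0.07, adjusted p = 0.00326) and the M-CSF receptor gene Csf1r (-0.21 ± 0.07, 1.16-fold, adjusted p = 0.0354), each negative on 6 of 6 arrays. Csf1r, the textbook target of PU.1, fell while Spi1 rose, but its adjusted p was between 0.0574 and 0.2 in the fits that left out 1 set or array. The 3 Tlr4 probes had means from -1.35 to -0.20. Over those fits the higher genes numbered 5 or 6 and the lower ones 2 to 5; Fcgr3 had adjusted p = 0.136 without set 1 and 0.251 without set 3, and also missed the threshold without any 1 of the 6 arrays. Csf3r had 0.208 without the Cy5 and 0.0582 without the Cy3 array of set 2. With exact zeros kept as values, Egr2 had adjusted p = 0.0815.

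Of 18 listed C/EBP target genes, 16 were tested, with 9 higher, 2 lower and 5 without a limma call, and a median of 1.23, against 7.35% called higher, 7.45% called lower and a median of -0.00 over all features. The list was chosen with earlier results of these data known and holds LPS-induced genes such as Il1b and Ccl2, many of them also known targets of NF-κB, so its count is a description. Leaving out 1 set or array gave 8 to 10 higher and 0 or 1 lower. Il1b (3.98 ± 0.12, 15.8-fold), the chemokine gene Ccl2 (2.99 ± 0.31, 7.92-fold), the granulocyte growth factor gene Csf3 (2.91 ± 0.40, 7.52-fold) and Saa3, an acute phase gene (2.61 ± 0.22, 6.10-fold), rose most, with adjusted p of at most 7.71e-05. A second Csf3 probe, measured on 4 arrays, gave -3.36 and -2.85 on the Cy5 arrays and 2.84 and 0.36 on the Cy3 arrays, and is not in that value. With exact zeros kept as values Csf3 stood at 1.2 (adjusted p = 0.141), the list had 6 higher genes and its median was 0.74. The lower genes were Csf3r and the nuclear receptor gene Pparg (-0.17 ± 0.00, adjusted p = 0.0478), which missed the threshold in each fit that left out 1 set or array and, at 0.102, with no replicate block. Single arrays of Pparg ran from -0.36 to 0.02, which the small SD of set means does not show. Its 2 probes had means of -0.24 and -0.10. Il12b, known to be restrained by NFIL3, stood at -0.00 ± 0.11 (adjusted p = 0.974).

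Of 8 listed ETS2 target genes 7 were tested: 4 were higher, 0 lower and 3 without a limma call, with a median of 0.46. Unadjusted p-values under 0.05 gave 0 lower as well. Over all features 7.35% were called higher and 7.45% lower, with a median of -0.00. This list too was chosen with earlier results of these data known, so its count is a description. The higher genes were the growth-promoting transcription factor gene Myc (3.42 ± 0.37, 10.7-fold), Egr1, the zinc finger immediate early gene (1.49 ± 0.14, 2.82-fold), the AP-1 gene Fosl1 (0.84 ± 0.06, 1.79-fold) and Bcl2l1 (0.46 ± 0.24, 1.38-fold). The first 3 had adjusted p of at most 0.00017. Bcl2l1 had adjusted p = 0.0191, but 0.0633 without set 1, 0.147 without set 3 and 0.129, at 0.24, with the median of its probes, and it missed the threshold in 6 of the 9 fits that left out 1 set or array. The protease genes Plau (0.20 ± 0.25), Mmp9 (0.06 ± 0.09) and Mmp3 (-0.05 ± 0.06) did not pass.

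**Figure D4:**
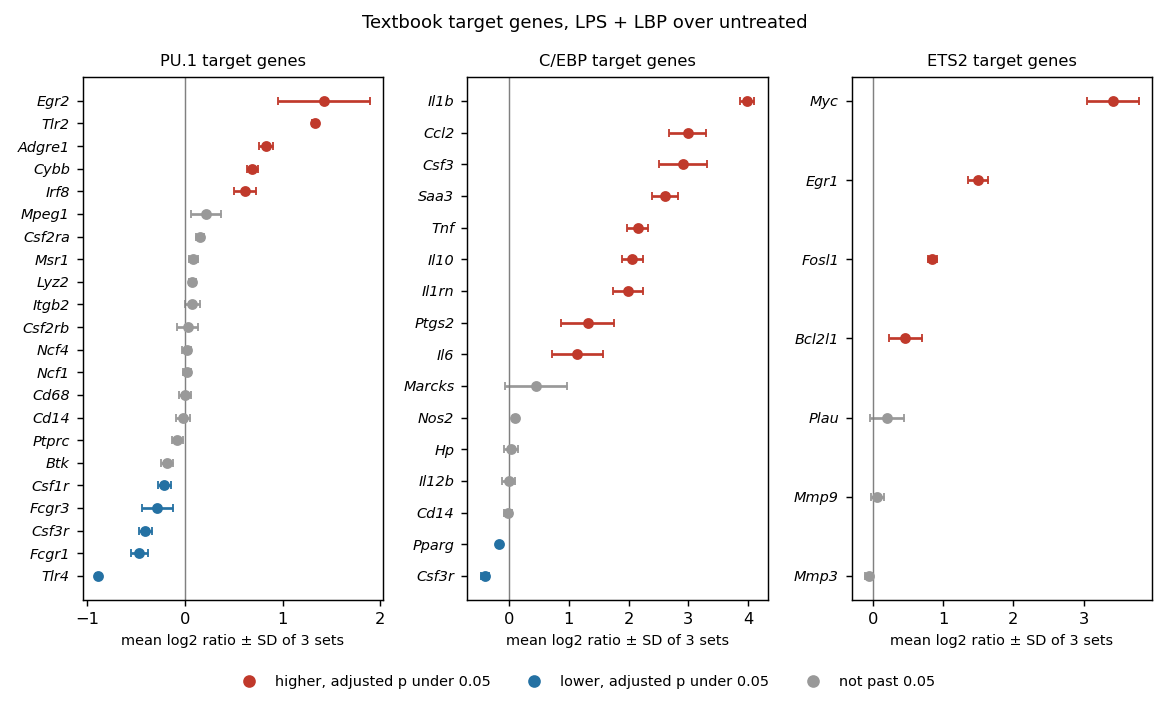
Mean log2 ratio ± SD of 3 sets (horizontal axes, which differ in range) of textbook target genes of PU.1, C/EBP factors and ETS2. Red marks genes higher and blue genes lower at adjusted p under 0.05; PU.1 targets run from -0.89 (Tlr4) to 1.42 (Egr2), and C/EBP targets reach 3.98 (Il1b).

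Markers of other cell types were read the same way. Of 19 listed for T cells, B cells, fibroblasts, endothelium and granulocytes, 16 were tested, 0 passed the threshold by limma (6 had an unadjusted p under 0.05), and their mean log2 ratios lay between -0.07 and 0.22. Over all features 7.35% were called higher and 7.45% lower, and 3150 of 11231 had an unadjusted p under 0.05. Of 7 macrophage markers tested, 1 (Adgre1) was higher, 2 (Csf1r and Fcgr1) were lower and 4 did not pass, Cd68 among them at 0.00 ± 0.06.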

How the data were processed

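The members and the gene lists were chosen with earlier results of these data known, and no list is used as independent support. Each deposited value is a log2 ratio, per probe, between the dyes of an array; the base was read from the values, since 87.3% to 92.8% of those of each array are log10 ratios of up to 7 decimals turned into log2. How the authors scanned, corrected and normalized the arrays is not given in the sources used here; medians per array were 0.00 to 0.02. Exact zeros (10.8% of values) were treated as missing, which left 13224 probes; averaging probes of 1 symbol gave 11231 features, 9472 of them named genes. Spot intensities were not used, so the number of arrays limits precision.

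Ratios of the Cy3 arrays (treated RNA in Cy3) were turned, arrays of a set averaged, and set means tested against 0 with limma 3.58.1 (R 4.3.3; lmFit, eBayes, two-sided, prior df 4.16), Benjamini-Hochberg adjusted over all features, threshold 0.05. Set numbers pair arrays by the labels. In the ratios as deposited, before signs were turned, deviations of same-numbered arrays correlated at r = 0.40, 0.43 and 0.14 over features. Turning the Cy3 arrays reverses these signs, so they do not measure a shared response to treatment. For the turned ratios, the consensus correlation within sets was -0.44, and -0.055 with a dye term. Genes were named by list: all members, up to 4 called genes of each direction, Il12b, Id2 and Csf1r, and the 3 nearest genes of each member; others (Etv5, Spib, Ets1, Runx1, Cebpg, Dbp, Plau, Mmp9, Mmp3, Cd68) were named after their values were seen. Alternatives covered blocks, dye term, left-out sets and arrays, scaling, zeros, probe rules and the test.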

Additional observations from a re-analysis of the deposited data

Results flagged for a closer look

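The members and most of the other genes named were checked, but not Ets1, Runx1, Dbp, Plau, Mmp9, Mmp3 and Cd68. Of the 61 genes checked, 1 had an array far from its others. This was Elk4, which stood at -0.0416 on the Cy5 array of set 2, against 0.20 on the next lowest array. The gap was 0.679 of its whole range over 6 arrays, above Dixon's critical value for 6 values. Of 61 genes looked at in this way, chance alone flags about 1 in 20.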

How the results depend on the processing

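Cebpd, Ets2 and Cebpb kept their direction and stayed past the threshold under all 23 alternatives, with means of 1.69 to 1.78, 0.96 to 1.42 and 0.56 to 0.60. Spi1 did so in 19, Cebpa in 17 and Nfil3 in 9, and no member changed sign. On the Cy5 arrays alone Cebpa stood at 0.38 and Nfil3 at 0.18, and on the Cy3 arrays alone Spi1 stood at 0.42, Cebpa at 0.52 and Nfil3 at 0.19, none past it. With zeros kept as values, Spi1 (0.47) and Cebpa (0.45) missed it, as did Nfil3 with scaled arrays (0.18) or with missing arrays allowed (0.18). Of the other listed genes named as called, Gabpa (adjusted p = 0.146), Elk4 (0.108), Per2 (0.103), Nr1d2 (0.168), Jun (0.170), Csf1r (0.0816), Fcgr3 (0.179) and Bcl2l1 (0.153) also missed it with zeros kept, beside those given above. Against a 1.2-fold change Spi1 (0.47), Cebpa (0.45) and Nfil3 (0.18) did not pass. Of the other listed genes named as called, Gabpa, Elk4, Etv5, Tef, Nr1d2, Per2, Irf4, Jun, Fcgr3, Csf3r, Csf1r, Pparg and Bcl2l1 missed the threshold in each orientation alone and against a 1.2-fold change, Ddit3 on the Cy3 arrays alone and against that change, Elf1 on the Cy3 arrays alone and Fcgr1 against that change. Leaving out 1 set or array, the means were 0.40 to 0.51 for Spi1, 0.35 to 0.52 for Cebpa and 0.17 to 0.20 for Nfil3. The count of features called was 1663 by set means, 1376 with no replicate block, 2282 with the set as a random replicate block (correlation -0.44) and 1933 with that block and a dye term, the last chosen after seeing the data; all 6 members were higher in each. It was 639 in Cy5 arrays alone, 655 in Cy3 arrays alone, 962 with zeros kept, 394 against a 1.2-fold change and 533 to 1685 with a set or array left out. The left-out fits also had fewer arrays, and the cause of these shifts was not tested.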
